A study of Rattus norvegicus with 8 samples.

Results

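The forskolin response of INS-1 cells exposed to an A-CREB adenovirus was described from 2 RNA sequencing libraries, 1 with forskolin and 1 with its vehicle DMSO. INS-1 cells derive from a rat insulinoma, secrete insulin and serve as a beta cell model. Both cultures were at 11 mM glucose and had been exposed for 2 days to the virus, and the treated one received 10 uM forskolin for 2 h. A parallel pair of libraries came from cells at 11 mM glucose without virus, with 10 uM forskolin or DMSO for 2 h. A control virus was not among the samples, so infection and A-CREB cannot be told apart in any value below. The genes were those in the deposited A-CREB table with a mean over its 4 libraries of at least 1 FPKM (fragments per kilobase of transcript, scaled to library size), which gave 392 of 566 listed genes. The table lists only genes whose forskolin value exceeded 2 times the DMSO value without virus, so the response described is that left among genes induced without virus. Each group had 1 library, so no difference had a replicate check, no test was made and no p-value appears. In bulk RNA of this kind, fewer cells that express a gene and less RNA per cell cannot be told apart.

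The diterpene forskolin stimulates adenylyl cyclase, and the cAMP this makes frees the catalytic subunits of protein kinase A. The kinase phosphorylates the transcription factor CREB at promoters that carry a cAMP response element (CRE), and CREB coactivators of the CRTC family enter the nucleus in the same response. In beta cells this pathway links incretin hormones to genes of survival and insulin secretion. A-CREB is a dominant-negative partner that dimerizes with CREB and keeps it off DNA. The virus-borne construct itself was not measured in the table.

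A fold below is the forskolin level over the DMSO level on the FPKM + 0.1 scale, which understates the change of weakly expressed genes. A gene was put in the higher class when its A-CREB forskolin level was at least 1.5-fold above its A-CREB DMSO level, in the lower class when it was at least 1.5-fold below, and in the flat class otherwise. Of the 392 genes, 169 (43.1%) were in the higher class, 195 (49.7%) were flat and 28 (7.14%) were in the lower class. Over all 566 listed genes the shares were 37.5% higher and 13.3% lower. A fold of 2 or more was found for 86 of the 392 genes (21.9%), against 19.1% of all listed genes, and a fold of 4 or more for 17. The median log2 fold was 0.48, with an interquartile range of 0.10 to 0.91. The sign of the fold was positive in 309 genes and negative in 83. Without virus the median log2 fold of these genes was 1.505, which follows from how they were listed. As a share of the forskolin gain in FPKM without virus, the median gain left with A-CREB was 13.3%. Because listing used the gain without virus, a lower gain in any other pair of libraries would be partly built in.

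Level and class went together. Genes in the higher class had a median mean level of 23.1 FPKM, flat genes 8.47 FPKM and genes in the lower class 2.32 FPKM. The lower class held 19 of its 28 genes at a mean under 5 FPKM (67.9%), against 23.7% of the higher class. Among the 98 genes with a mean of 50 FPKM or more, 59 were higher, 38 flat and 1 lower. At the limit of 1 FPKM, the genes just inside were Ubxn7, at a mean of 1.00 FPKM, and Thbs1, also at 1.00 FPKM, and those just outside were Ptprcap at 0.941 FPKM and Acvr1c at 0.913 FPKM. Library read totals are not stated in the labels, but the FPKM of low genes fall on steps of whole reads. For a weakly expressed gene of median length, 1 FPKM came to some 8.34 reads in A-CREB DMSO and some 10.4 reads in A-CREB forskolin. Folds near 1 FPKM therefore rest on few reads.

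**Figure D1:**
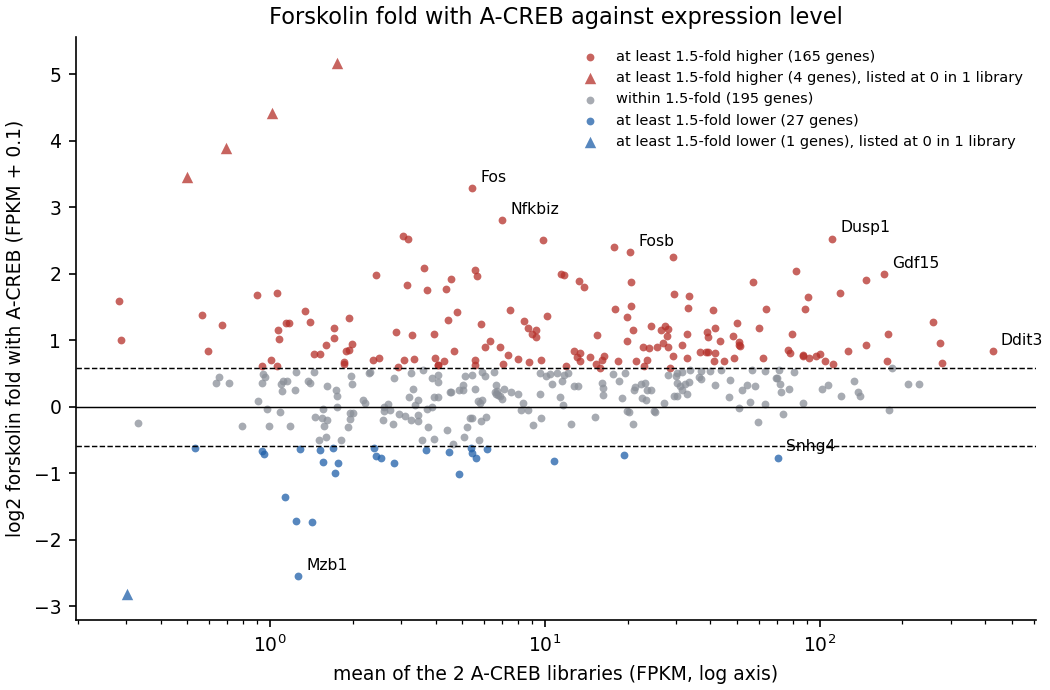
Each point is 1 of the 392 genes, with the mean of the 2 A-CREB libraries (FPKM, log axis) across and the log2 forskolin fold with A-CREB upward; dashed lines mark 1.5-fold and triangles mark 5 genes listed at 0 in 1 A-CREB library, whose height depends on the pseudocount. The 28 genes of the lower class lie mostly at low levels, with Snhg4, at 88.6 and 52.3 FPKM, farthest to the right.

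The fold left with A-CREB followed the fold without virus. Of 267 genes under 4-fold without virus, 80 (29.96%) counted as higher with A-CREB, and the median log2 fold of the 267 was 0.34. Of 64 genes at 4-fold to below 8-fold, 36 reached it, with a median of 0.68. Of 36 genes at 8-fold to below 16-fold, 29 reached it, with a median of 1.103. Of 25 genes at 16-fold or more, 24 reached it, with a median of 1.70. The genes with the highest fold without virus had the largest median fold with A-CREB and the smallest share of the gain left. The median share was 16.5% in the group under 4-fold, 12.2% and 11.98% in the next groups and 7.48% in the group at 16-fold or more. The libraries without virus both grouped the genes and gave the gain that divides the share. A falling share is therefore partly built in. Across the 387 genes without a 0, the log2 folds with and without virus had a Pearson r of 0.545 and a Spearman rho of 0.445. These are descriptions across genes of 4 libraries, and genes are not replicates.

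**Figure D2:**
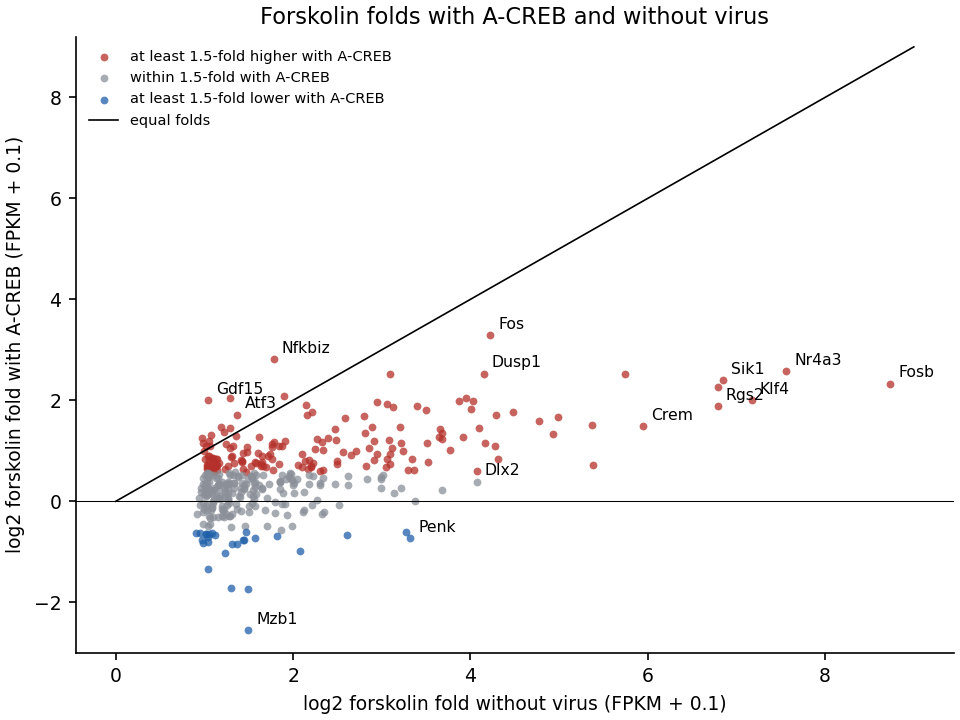
Log2 forskolin folds without virus (across) and with A-CREB (upward) of the 387 genes without a 0, each point a gene, with the line of equal folds. Nearly all points lie under the line, and 14 of the 387 genes lie above it, among them Nfkbiz, Gdf15 and Atf3.

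The highest fold among genes without a 0 was that of Fos, which pairs with Jun proteins to form AP-1. Its levels in DMSO and forskolin, in that order here and below, were 3.42 and 65.5 FPKM without virus and 0.922 and 9.91 FPKM with A-CREB (9.80-fold). Nr4a3, an orphan nuclear receptor of the early response, was at 0.332 and 81.3 FPKM without virus and at 0.802 and 5.28 FPKM with A-CREB (5.96-fold). Its relative Nr4a2 was at 1.88 and 106 FPKM without virus and at 0.870 and 5.49 FPKM with A-CREB (5.76-fold). In all of these the A-CREB forskolin library was well below the forskolin library without virus, although the fold was large. Nr4a1, the third of the family, was at 27.1 and 349.6 FPKM without virus and at 11.1 and 28.6 FPKM with A-CREB, a smaller fold of 2.55. For Nr4a1 the A-CREB forskolin level was about that of the DMSO library without virus.

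Of the 23 early transcription factor genes in the set, 19 were in the higher class (82.6%, against 43.1% over all 392 genes), 4 were flat and none was lower, with a median log2 fold of 1.48 against 0.48 over all 392 genes. Their median fold without virus was also high (log2 3.68, against 1.505 over all). Fosb was at 0.183 and 119.9 FPKM without virus and at 6.69 and 34.1 FPKM with A-CREB (5.04-fold), so its A-CREB DMSO level was already well above that without virus. Fosl2 was at 8.31 and 933 FPKM without virus and at 10.1 and 48.5 FPKM with A-CREB (4.78-fold). Junb, the AP-1 partner, was at 29.7 and 374 FPKM and at 29.3 and 70.7 FPKM (2.41-fold). Each of these AP-1 genes was in the higher class, with a share of the gain left that ran from 4.16% of the gain in FPKM for Fosl2 to 22.9% for Fosb. Klf4, a zinc finger factor, was at 1.03 and 162 FPKM without virus and at 4.51 and 18.4 FPKM with A-CREB (4.002-fold). Egr1, another zinc finger factor of the immediate early response, was at 8.20 and 61.4 FPKM and at 9.45 and 26.5 FPKM (2.78-fold). Ppargc1a, a coactivator of mitochondrial genes and a CREB target in liver, was at 9.46 and 79.4 FPKM without virus and at 1.84 and 7.28 FPKM with A-CREB (3.80-fold), so both of its A-CREB levels were below the DMSO level without virus. Jund, at 147 and 220.1 FPKM with A-CREB, lay just inside the flat class, and the other flat members were Nfil3, Id2 and Egr4. The forskolin level was lower with A-CREB than without virus in 21 of the 23 genes, against 323 of all 392 genes. The other 2 were Atf3 and Ier2, whose levels are given below, and Ier2 had 466% of its gain left.

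Of 6 genes on a list tied to cAMP and G protein signalling, 4 were in the higher class (66.7%, against 43.1% over all 392 genes) and 2 were flat. Their median log2 fold was 1.33, with 6.85% to 19.6% of the gain left. Their median log2 fold without virus was also high, 4.06 against 1.505 over all. Class went with that fold, as given above, and its part in these values was not tested. Sik1, a kinase that holds CRTC coactivators out of the nucleus, was at 2.62 and 314 FPKM without virus and at 5.59 and 30.1 FPKM with A-CREB (5.30-fold). Rgs2, which limits G protein signalling, was at 2.89 and 330.0 FPKM and at 8.70 and 32.3 FPKM (3.68-fold). Crem, whose internal promoter yields the repressor ICER, was at 7.46 and 465 FPKM and at 17.4 and 48.7 FPKM (2.80-fold). For Sik1, Rgs2 and Crem the A-CREB DMSO level was above the DMSO level without virus and the A-CREB forskolin level was far below the forskolin level without virus. Rgs16 was also in the higher class (2.25-fold). Akap12, an anchor of protein kinase A, was at 46.4 and 184 FPKM without virus and at 30.1 and 44.0 FPKM with A-CREB (1.46-fold), and the phosphodiesterase gene Pde4d had 1.43-fold, so both were flat.

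Genes on a list of MAP kinase feedback, in which Gem and Rasd1 were also counted, had a higher median share of their gain left. Of 10 in the set 8 were in the higher class, against 43.1% of all 392 genes, and 2, Dusp4 and Dusp10, were flat. The median share of the gain left was 34.9%, against 13.3% over all 392 genes, and the median log2 fold was 0.96. The share ran from 6.02% to 82.1%. Their median mean level was higher, 70.2 FPKM against 13.0 FPKM over all, and their median log2 fold without virus was 2.02 against 1.505. The part of level and of that fold in these values was not tested. Dusp1, which dephosphorylates MAP kinases, was at 23.3 and 414 FPKM without virus and at 32.7 and 189.6 FPKM with A-CREB (5.78-fold), which left 40.1% of its gain. Dusp8, of the same family, was at 73.0 and 161 FPKM and at 90.8 and 163 FPKM (1.79-fold), with forskolin levels that were nearly the same with A-CREB and without virus. Gem, a small GTPase that limits calcium channels, was at 38.8 and 195 FPKM and at 36.6 and 83.2 FPKM (2.27-fold). Spry1, an inhibitor of receptor tyrosine kinase signalling, was at 1.01 and 16.2 FPKM and at 0.917 and 3.94 FPKM (3.97-fold). Rasd1, a Ras-like G protein, stood lower, at 29.4 and 245 FPKM without virus and at 28.2 and 50.3 FPKM with A-CREB (1.78-fold, 10.2% of the gain).

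The stress genes stood nearest to their response without virus. All 9 members of the integrated stress and unfolded protein list were in the higher class, where the share over all 392 genes was 43.1%, with folds of 1.56 to 3.996. The median share of the gain left was 66.7%, and the range was 19.2% for Srxn1, an oxidative stress gene, to 174% for Gdf15. Their median log2 fold without virus, 1.48, was close to that of all 392 genes, 1.505. Their median mean level was higher, 121 FPKM against 13.0 FPKM. Of the 98 genes at 50 FPKM or more, 60.2% were in the higher class, with a median of 16.7% of the gain left. The part of level in the values of this list was not tested. Gdf15, a stress-induced cytokine, was at 112 and 229.8 FPKM without virus and at 68.7 and 275 FPKM with A-CREB. Atf3, a stress-induced repressor that is also an early cAMP gene, was at 68.5 and 176 FPKM and at 55.3 and 182 FPKM (3.29-fold). Ddit4, an inhibitor of mTORC1 signalling, was at 42.6 and 188 FPKM and at 62.0 and 233 FPKM (3.75-fold). In these 3 genes, and in none of the other 6, the forskolin level was higher with A-CREB than without virus. Over all 392 genes this held in 69. Ppp1r15a, which directs the dephosphorylation of eIF2alpha, was at 153 and 470.0 FPKM and at 150.3 and 365 FPKM (2.43-fold). Ddit3, the stress factor CHOP, was the most expressed member, at 380.4 and 766 FPKM and at 304 and 547 FPKM (1.80-fold). Gdf15 also belongs to the growth factor list, and Atf3 to the early transcription factor list.

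**Figure D3:**
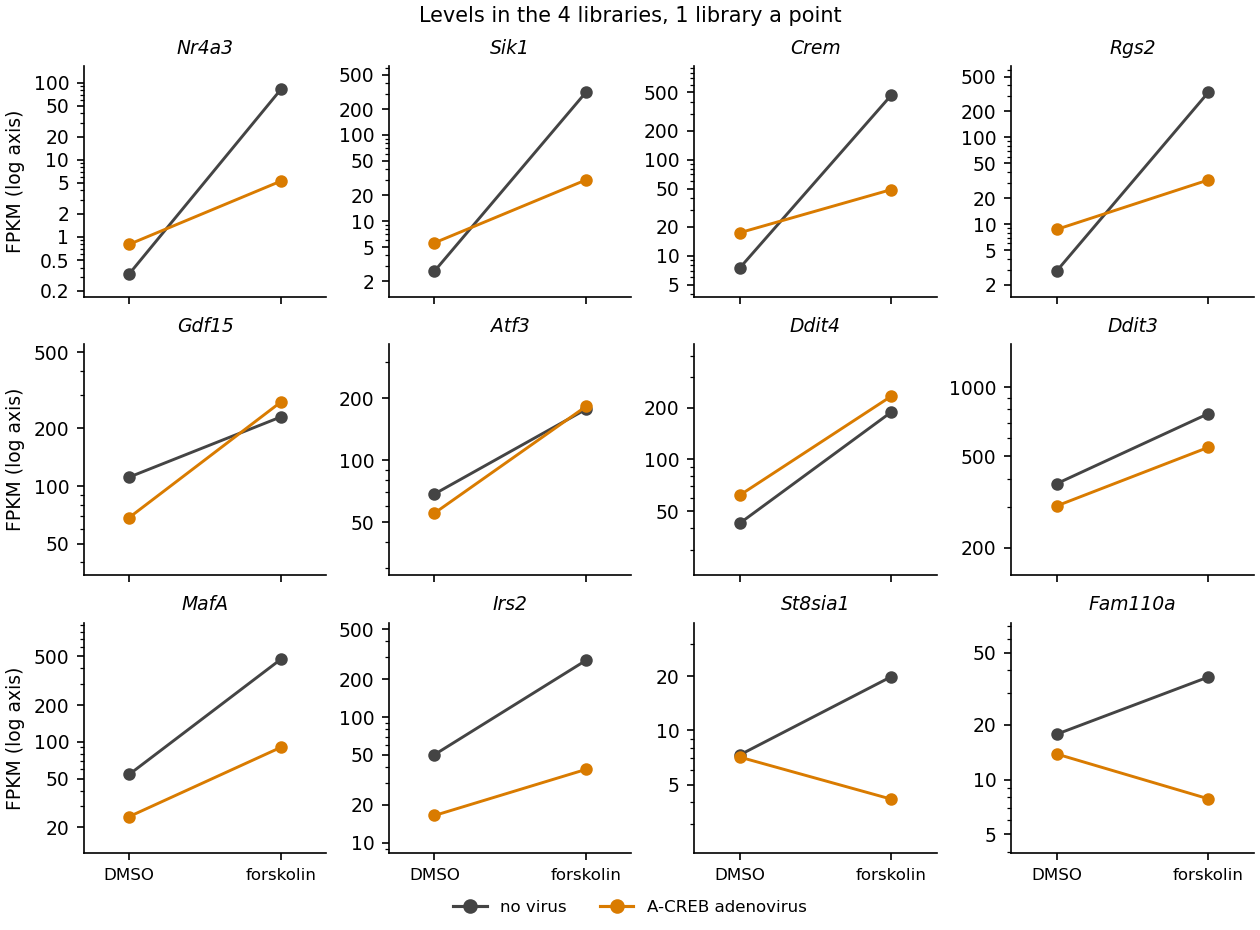
FPKM (log axes, a scale for each gene) in DMSO and forskolin without virus (grey) and with A-CREB (orange) for 12 genes, each point 1 library. The upper row shows Nr4a3, Sik1, Crem and Rgs2 with shallow orange lines, the middle row shows Gdf15, Atf3, Ddit4 and Ddit3 with orange lines close to the grey ones, and in the lower row MafA and Irs2 have orange lines below the grey ones while St8sia1 and Fam110a are lower in forskolin than in DMSO with A-CREB and higher without virus.

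A few genes had a larger fold with A-CREB than without virus. There were 17, of which 14 had no 0, and 16 of the 17 were under 4-fold without virus, as were 267 of all 392 genes. Nfkbiz, a nuclear regulator of NF-kB target genes, was at 2.70 and 9.50 FPKM without virus and at 1.67 and 12.3 FPKM with A-CREB (7.02-fold). Il23a, a cytokine subunit, was at 3.95 and 9.82 FPKM and at 2.10 and 9.03 FPKM (4.15-fold). Mfsd2a, a lipid transporter gene, was at 5.59 and 21.2 FPKM (3.74-fold) and at 1.32 and 5.93 FPKM (4.24-fold). In Nfkbiz, Il23a and Mfsd2a the A-CREB DMSO level, which enters the fold, was below that without virus. Of the 5 genes of the NF-kB, interferon and antiviral list, Nfkbiz and Zc3h12a, which degrades inflammatory mRNAs, were in the higher class, 2 of 5 being near the 43.1% over all 392 genes. The other 3, Cd83, Irf7 and Nfkb2, were flat, with Cd83 at 8.31 and 8.05 FPKM and Nfkb2 at 4.95 and 3.89 FPKM with A-CREB. The interferon gene Irf7 was at 1.31 and 1.05 FPKM with A-CREB, and at 0.951 and 2.44 FPKM without virus.

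Of 9 growth factor and cytokine genes 7 were in the higher class (77.8%, against 43.1% of all 392 genes), 1 was flat and 1 was lower, and 3 of the 9 were listed at 0 in an A-CREB library. Without virus the median log2 fold of the 9 was 2.11, against 1.505 over all. Hbegf, an EGF family growth factor, was at 11.2 and 219.8 FPKM without virus and at 13.8 and 45.2 FPKM with A-CREB (3.25-fold). Vegfa, an angiogenic factor, was at 296 and 627 FPKM and at 216 and 342 FPKM (1.58-fold). Tgfb2 was at 0.774 and 2.01 FPKM with A-CREB (2.42-fold), close to the level where few reads decide. The higher class also counted Il15, Cxcl1, Mgst3 and Rxfp3, which were listed at 0 in A-CREB DMSO and at 2.03, 1.39, 3.50 and 1.00 FPKM in A-CREB forskolin, and no fold is given for them. Lif, a cytokine, was listed at 0 in A-CREB forskolin and at 0.602 FPKM in A-CREB DMSO, and was counted as lower.

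The beta cell identity of the cells could not be checked, because only genes induced without virus are listed. A marker that is not listed may still be expressed. Of 8 beta cell markers MafA and Pdx1 were listed, and of 29 markers of other islet, exocrine, vascular, stromal and immune cells only Kdr, an endothelial receptor gene, was. Kdr was at 0.0491 and 3.98 FPKM without virus and at 0.0914 and 0.475 FPKM with A-CREB. All 4 beta cell genes in the set had a lower forskolin level with A-CREB than without virus, as did 323 of all 392 genes. By class, 3 counted as higher (75%, against 43.1% over all 392 genes) and 1 as flat. Without virus the median log2 fold of the 4 was 1.80, against 1.505 over all. MafA, which drives insulin transcription in mature beta cells, was at 54.2 and 474 FPKM without virus and at 24.5 and 90.2 FPKM with A-CREB (3.67-fold). Irs2, an adaptor of the insulin receptor and a known CREB target in islets, was at 50.3 and 283 FPKM and at 16.5 and 38.4 FPKM (2.32-fold). Pdx1, which drives beta cell development and insulin transcription, had nearly equal folds, at 69.8 and 146 FPKM without virus and at 50.7 and 108 FPKM with A-CREB (2.09-fold and 2.13-fold). Nkx2-2, an islet transcription factor, was flat, at 25.5 and 54.9 FPKM without virus and at 5.35 and 7.73 FPKM with A-CREB.

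Of 6 peptide precursor and granin genes 3 were in the higher class, 2 were flat and 1 was lower, so that the higher share was near the 43.1% over all 392 genes. The median share of the gain left was 9.02%, against 13.3% over all. Stc1, a glycoprotein hormone, had 2.70-fold, from 2.53 to 7.01 FPKM with A-CREB. Tac1, the precursor of substance P, was at 48.5 and 209 FPKM without virus and at 31.6 and 51.0 FPKM with A-CREB (1.61-fold), and Cck, the cholecystokinin gene, had 1.64-fold. Calca, the calcitonin precursor, stood apart in its level, at 1.20 and 4.69 FPKM without virus and at 20.4 and 19.5 FPKM with A-CREB. Of 3 clock genes Cry2 (2.23-fold) and Per1 (1.75-fold) were in the higher class (66.7%, against 43.1% over all 392 genes) and Nfil3 was flat. Their share of the gain left was 4.03% to 6.90%, against a median of 13.3% over all 392 genes. Their median log2 fold without virus was 2.91, against 1.505 over all. Cry2, a repressor of the clock, was at 18.4 and 329.6 FPKM without virus and at 16.3 and 36.4 FPKM with A-CREB.

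Of 15 channel and transporter genes 4 were in the higher class (26.7%, against 43.1% over all 392 genes), 9 were flat and 2 were lower (13.3%, against 7.14%). None reached 2-fold, against 21.9% over all. Without virus the median log2 fold of the 15 was 1.32, against 1.505 over all. One of the 4, Slc9a3r1, encodes a scaffold of membrane proteins and carries a transporter name. Slc7a1, a carrier of cationic amino acids, was at 134 and 274 FPKM without virus and at 134 and 216 FPKM with A-CREB (1.61-fold). Slc7a5, a carrier of large neutral amino acids, was at 221 and 445 FPKM and at 185 and 235 FPKM (1.27-fold). Slc16a1, a monocarboxylate carrier, was at 20.2 and 26.1 FPKM with A-CREB (1.29-fold). Of 5 fuel metabolism genes Ppargc1a was in the higher class (20%, against 43.1% over all 392 genes) and Insig1, Slc16a1, Pfkfb3 and Lpin1 were flat. Insig1, which retains the sterol sensor in the endoplasmic reticulum, was at 38.8 and 140.0 FPKM without virus and at 40.6 and 54.0 FPKM with A-CREB. Lpin1, a phosphatidate phosphatase, was at 8.31 and 36.5 FPKM and at 5.64 and 5.02 FPKM, so its forskolin level with A-CREB was below its DMSO level.

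Of 8 cell cycle and p53 genes 5 were in the higher class (62.5%, against 43.1% over all 392 genes) and 3 were flat, and with a pseudocount of 1 the higher ones were 4. Without virus the median log2 fold of the 8 was 2.84, against 1.505 over all. Plk3, a stress-activated kinase, was at 14.8 and 88.9 FPKM without virus and at 43.7 and 137 FPKM with A-CREB (3.13-fold), with both A-CREB levels above their counterparts. Btg2, an antiproliferative gene, was at 33.9 and 313 FPKM and at 46.9 and 129.7 FPKM (2.76-fold). Btg1, its relative, was at 140.2 and 1197 FPKM and at 101 and 193 FPKM (1.91-fold), and 8.72% of its gain was left. Cdkn1b, the inhibitor p27, was at 115 and 151 FPKM with A-CREB and flat. The 3 cytoskeleton and adhesion genes were in the higher class, against 43.1% of all 392 genes, but with a pseudocount of 1 Cldn23 was flat (log2 0.51). Their median log2 fold without virus was 2.81. Of the 3, Actn2, a muscle actinin, was at 3.76 and 66.2 FPKM without virus and at 3.95 and 11.0 FPKM with A-CREB (2.74-fold), Thbs1 had 3.21-fold near 1 FPKM, and the claudin gene Cldn23 had 1.54-fold.

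**Figure D4:**
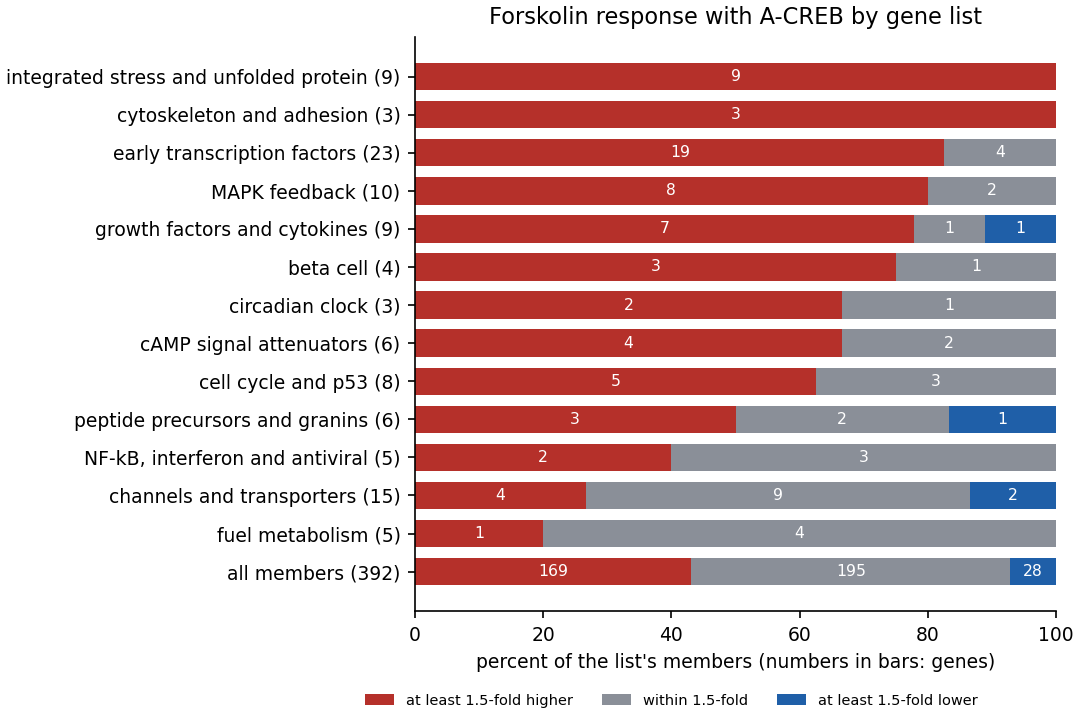
Share of each list's genes in the higher (red), flat (grey) and lower (blue) class with A-CREB, with the number of genes in the bars and the number in each list in parentheses; lists with at least 3 genes are shown. All 9 genes of the integrated stress and unfolded protein list were higher, against 169 of all 392 genes.

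Flat genes were the largest class. Their median levels were 4.95 and 14.7 FPKM in DMSO and forskolin without virus and 6.32 and 7.28 FPKM with A-CREB. The flat gene with the highest fold without virus was Dlx2, a homeobox gene, at 1.399 and 25.1 FPKM without virus (16.8-fold) and at 0.949 and 1.27 FPKM with A-CREB (1.31-fold). Id2, an inhibitor of helix-loop-helix factors, was at 1.05 and 14.7 FPKM and at 4.21 and 4.91 FPKM (1.16-fold). St8sia4, a polysialic acid synthase, was at 0.240 and 3.41 FPKM and at 1.75 and 1.76 FPKM. Dlx2 stayed low in both A-CREB libraries, while Id2 and St8sia4 were above their DMSO level without virus in both. Ldhb, a lactate dehydrogenase subunit, was at 54.6 and 483 FPKM without virus and at 132 and 149 FPKM with A-CREB, folds of 8.83 and 1.12. Pdzrn3 was at 0.646 and 6.84 FPKM without virus and at 3.00 and 3.63 FPKM with A-CREB. Efnb2, an ephrin ligand, was at 0.583 and 5.41 FPKM and at 2.65 and 3.84 FPKM (1.43-fold), so both genes were flat from raised DMSO levels. Ninj1, an adhesion molecule, was at 196.1 and 440.0 FPKM and at 202 and 257 FPKM (1.27-fold), so its levels were close in DMSO and apart in forskolin.

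Genes in the lower class were mostly weakly expressed. Their median levels were 1.13 and 3.21 FPKM without virus and 2.62 and 1.56 FPKM with A-CREB. In 24 of the 28 the DMSO level was higher with A-CREB than without virus, against 236 of all 392 genes. Among the 195 flat genes the count was 134, and among the 169 higher genes 78. That DMSO library is also the denominator of the fold. The most expressed were Snhg4, a small nucleolar RNA host gene, at 34.0 and 93.2 FPKM without virus and at 88.6 and 52.3 FPKM with A-CREB, Rps25, Fam110a and St8sia1. Rps25, a ribosomal protein gene, was at 9.50 and 28.4 FPKM and at 24.2 and 14.6 FPKM. Ribosomal protein genes are known for near-identical copies in the genome, and how reads shared with copies were assigned was not examined, so its values are uncertain. Fam110a was at 17.8 and 36.8 FPKM without virus and at 13.8 and 7.83 FPKM with A-CREB, and St8sia1, a ganglioside synthase, was at 7.30 and 19.9 FPKM and at 7.10 and 4.15 FPKM. For Fam110a and St8sia1 the DMSO levels lay close together and the forskolin levels on opposite sides of them. The lowest fold among genes without a 0 was that of Mzb1, at 2.23 and 0.2996 FPKM with A-CREB, where the smallest whole numbers of reads that match are 6 and 1. Those of Cd7, at 1.96 and 0.526 FPKM, matched 3 reads and 1. Penk, the enkephalin precursor, was at 0.670 and 7.59 FPKM without virus and at 3.07 and 1.81 FPKM with A-CREB. Such differences rest on few reads if the smallest matching numbers are the true ones.

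Promoters were searched for the CRE palindrome TGACGTCA, for its half-sites TGACG and CGTCA, which the palindrome also holds, and for the AP-1 site TGACTCA or TGAGTCA, on both strands of the 300 bases from 250 before to 50 after each gene's start (RefSeq, GRCr8). A promoter was found for 309 of the 392 genes. The palindrome was present in 28 of them (9.06%), against 1.83% of all 33469 promoters in the reference table. That reference counts every entry, with no filter on expression, while the 309 are 1 promoter a gene, so the sets are not alike. By class the palindrome was in 15 of 133 promoters of the higher class (11.3%), in 13 of 157 flat ones (8.28%) and in 0 of 19 lower ones, a count that allows a share of up to 15.8%. A half-site was in 43.4% of the 309 promoters and in 21.2% of all, and the AP-1 site in 3.56% and 4.63%. The 28 genes with the palindrome had a median log2 fold with A-CREB of 0.76 and without virus of 1.82, and the 281 genes without it had 0.47 and 1.46. These counts describe letters in a window and not binding.

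The 250 bases before the start are shown for palindrome-bearing promoters, to set genes whose fold stayed high with A-CREB (Dusp1, Ppargc1a and Maff) beside genes that were flat (Gpr6, Slc25a25 and Cartpt). Capitals mark the palindrome and any further half-site.
Dusp1, chr10:17184603-17184852, plus strand: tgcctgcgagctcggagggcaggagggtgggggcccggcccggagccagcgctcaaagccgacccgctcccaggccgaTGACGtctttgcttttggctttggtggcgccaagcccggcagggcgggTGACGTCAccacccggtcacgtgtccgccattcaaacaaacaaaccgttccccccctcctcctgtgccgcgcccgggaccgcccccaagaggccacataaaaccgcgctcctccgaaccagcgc
Ppargc1a, chr14:63634058-63634307, plus strand: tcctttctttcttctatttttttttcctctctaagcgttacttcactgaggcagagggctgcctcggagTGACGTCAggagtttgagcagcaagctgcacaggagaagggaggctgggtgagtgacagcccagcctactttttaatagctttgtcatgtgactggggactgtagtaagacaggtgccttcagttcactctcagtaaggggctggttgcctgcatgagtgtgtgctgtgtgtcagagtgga
Maff, chr7:112792537-112792786, plus strand: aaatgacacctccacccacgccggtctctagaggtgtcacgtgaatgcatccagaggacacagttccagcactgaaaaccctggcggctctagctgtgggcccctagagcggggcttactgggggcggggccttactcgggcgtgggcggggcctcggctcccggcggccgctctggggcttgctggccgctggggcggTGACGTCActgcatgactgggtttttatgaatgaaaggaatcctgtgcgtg
Gpr6, chr20:46075252-46075501, minus strand: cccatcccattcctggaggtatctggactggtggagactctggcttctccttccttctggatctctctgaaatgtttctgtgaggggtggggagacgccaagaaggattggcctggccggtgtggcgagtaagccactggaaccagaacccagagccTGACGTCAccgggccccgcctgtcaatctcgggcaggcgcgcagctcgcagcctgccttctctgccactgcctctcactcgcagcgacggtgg
Slc25a25, chr3:36116582-36116831, minus strand: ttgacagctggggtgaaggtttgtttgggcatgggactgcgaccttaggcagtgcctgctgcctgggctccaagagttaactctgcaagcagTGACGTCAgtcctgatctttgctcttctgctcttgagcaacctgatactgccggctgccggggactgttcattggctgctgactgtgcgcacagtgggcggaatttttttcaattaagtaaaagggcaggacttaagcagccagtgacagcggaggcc
Cartpt, chr2:32991236-32991485, minus strand: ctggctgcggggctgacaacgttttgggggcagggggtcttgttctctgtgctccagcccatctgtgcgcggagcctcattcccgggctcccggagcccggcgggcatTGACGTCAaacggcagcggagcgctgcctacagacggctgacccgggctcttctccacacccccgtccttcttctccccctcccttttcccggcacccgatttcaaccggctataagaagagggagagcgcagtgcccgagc

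The palindrome began 124 bases before the start in Dusp1, 181 in Ppargc1a and 51 in Maff, and 93, 158 and 142 bases before it in Gpr6, Slc25a25 and Cartpt. Each promoter was picked for the palindrome and held 1 of it, and Dusp1 alone held 1 further half-site in this stretch. Maff, a small Maf transcription factor, was at 5.61 and 60.2 FPKM without virus and at 5.61 and 21.1 FPKM with A-CREB (3.71-fold). Gpr6, a receptor coupled to stimulatory G protein, was at 15.9 and 80.0 FPKM without virus and at 22.7 and 19.0 FPKM with A-CREB. Slc25a25, a mitochondrial carrier, was at 26.7 and 121 FPKM and at 36.6 and 46.3 FPKM (1.26-fold). Cartpt, the precursor of the CART peptide, was at 5.25 and 23.1 FPKM and at 7.45 and 8.54 FPKM (1.14-fold). These promoters were picked for the same 8 letters in both classes, so the shared letters are not a result.

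The same genes were looked up in the separate glucose table, whose 4 libraries came from virus-free cultures with 2.8 or 20 mM glucose over 3 days, then 10 uM forskolin or DMSO for 2 h. That table lists genes above 2-fold at 2.8 mM, was handled apart, and no level was set across tables. It held 148 of the 169 higher genes (87.6%), 131 of the 195 flat genes (67.2%) and 9 of the 28 lower genes (32.1%). The median mean levels of these classes in the A-CREB table differ in the same order, as given above, and the part of level in these shares was not tested. Among genes under 4-fold without virus whose mean was 5 FPKM or more, the median mean levels were 32.2, 28.7 and 7.48 FPKM and the shares listed were 86.9% of 61, 82.3% of 96 and 33.3% of 9. The median log2 fold at 20 mM glucose, which did not choose either list, was 1.96 for the higher genes, 1.38 for the flat genes and 1.84 for the lower genes. With a pseudocount of 1 these medians were 1.72, 1.28 and 1.20, so the order of flat and lower genes depended on the pseudocount. None of the 288 genes was at least 1.5-fold lower at 20 mM. All 288 had been listed for a rise with forskolin at 2.8 mM, so a lack of falls at 20 mM is partly built in. In the subset under 4-fold and of at least 5 FPKM, the medians at 20 mM were 1.27 for the 53 higher, 1.33 for the 79 flat and 0.43 for the 3 lower genes listed there. Penk had 3.59-fold at 20 mM, St8sia1 had 5.23-fold and Cd7 had 4.43-fold, so these lower genes were higher with forskolin in the glucose libraries. Rps25 was at 1.00-fold and Fam110a at 1.35-fold there.

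**Figure D5:**
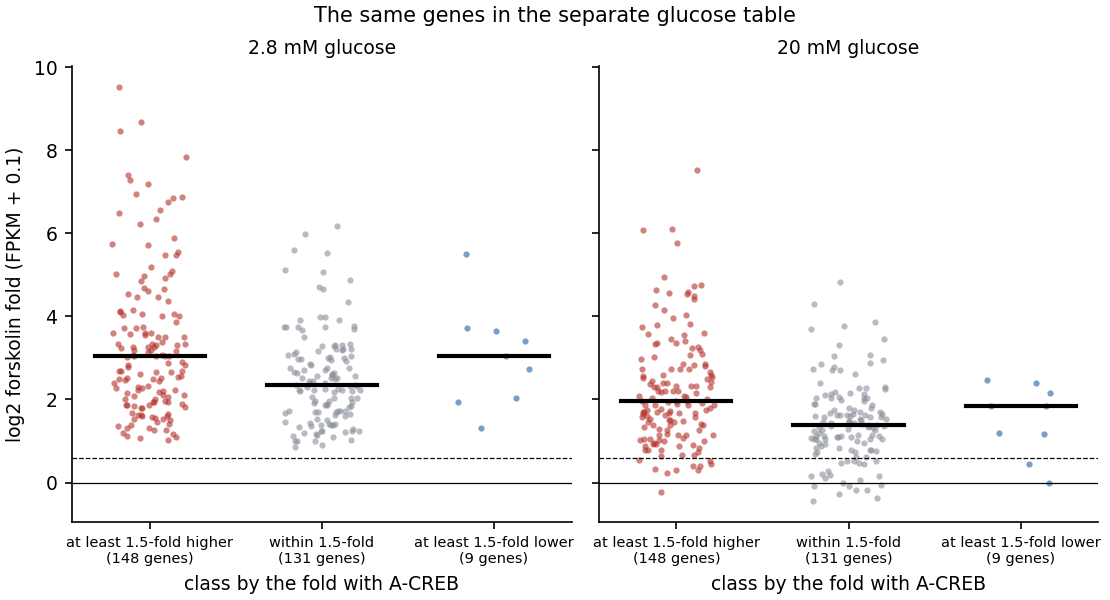
Log2 forskolin folds in the glucose table, at 2.8 mM (left) and 20 mM (right), of 288 genes grouped by their class with A-CREB; each point is a gene, black bars are medians and the dashed line is 1.5-fold. At 20 mM the medians are 1.96, 1.38 and 1.84. All genes shown were listed for a rise at 2.8 mM, so medians above 0 are partly built in.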

How the data were processed

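The authors deposited FPKM values in a table of 566 genes with 4 libraries (no virus or A-CREB, DMSO or forskolin) and a second table of 1344 genes with the glucose libraries. Reads were aligned with TopHat2 and FPKM computed with Cuffdiff on rn5, per the submitters' processing notes. Their versions, the annotation, the strand setting and how libraries were scaled are not stated in the labels; unequal scaling would move all folds together. Per the labels' protocols, Trizol-extracted, column-cleaned RNA went into NEBNext Ultra libraries of mRNA. Columns were assigned to samples by name. No sample was left out. Of the 566 names 524 matched a RefSeq symbol of GRCr8, 9 a gene ID, 31 a synonym and 2 nothing. These names gave promoters only. MafA carries stray quote marks in the table and Fosb a LOC identifier.

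Folds were log2((forskolin + 0.1)/(DMSO + 0.1)), with 1.5-fold classes. Genes listed at 0 in an A-CREB library (5 of the 392) were counted through the pseudocount, since a 0 can be a failed estimate, and no fold is given for them. Relative depth was taken from ratios of low genes on small whole numbers (tolerance 1%), where 83.9% of 174 low genes matched whole reads within 0.07 reads. Set against the no-virus DMSO library, the depth of the no-virus forskolin library was 0.907, that of the A-CREB DMSO library 1.08 and that of the A-CREB forskolin library 1.35. The calculations were tested on simulated data. The members, lists and settings were chosen with earlier results of these data known. Named genes, none with a 0, were the 15 highest and 15 lowest A-CREB folds, the 6 flat genes with the highest fold without virus, the 4 most expressed of each list and class, and a set of cAMP targets; other genes named were chosen after their values were seen. Calculations used Python 3.11.15, numpy 2.4.6, pandas 2.3.3 and scipy 1.17.1.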

Additional observations from a re-analysis of the deposited data

Results flagged for a closer look

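With 1 library a side, 27 genes without a 0 were at least 1.5-fold higher with forskolin without virus and at least 1.5-fold lower with A-CREB, opposite directions whose difference was not tested. Genes were listed for a rise without virus, so that side was fixed in advance. The lower class held 7.14% of the 392 genes, against 13.3% of all 566 listed genes. These 27 are that class without Lif, which had a 0. The log2 folds with A-CREB of those named were -2.54 for Mzb1, -1.74 for C1ql4, -1.72 for Cd7, -1.35 for Galns, -1.01 for Smim13, -0.99 for Slc38a8, -0.85 for Tnfaip8, -0.85 for Rnf138l1, -0.83 for Dbil5, -0.81 for Fam110a, -0.77 for Ndst3, -0.76 for St8sia1, -0.76 for Snhg4, -0.73 for Penk and -0.72 for Rps25. Of these Snhg4, Rps25, Fam110a, St8sia1 and Smim13 were at 6 FPKM or more in A-CREB DMSO.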

How the results depend on the processing

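The count of 169 higher genes was 142 with a pseudocount of 1, 129 at a mean of at least 5 FPKM, and 204 or 133 with the A-CREB forskolin library multiplied by 1.1 or 0.9. The 28 lower genes were 13 with a pseudocount of 1, 75 with no minimum mean, 9 at a mean of at least 5 FPKM and 15 with the forskolin library multiplied by 1.1. The median log2 fold of 0.48 was 0.36 with no minimum mean, 0.59 at 5 FPKM, and 0.61 or 0.33 with the multiplied library. The 195 flat genes were 118 at 5 FPKM. With 2-fold classes 86 genes were higher, 300 flat and 6 lower, and with narrower classes (a fold midway between 1 and the main one) 114 were flat. At 5 FPKM the higher share of genes under 4-fold without virus was 36.7%, against 29.96%, and the lists of NF-kB and growth factor genes had 1 of 3 and 3 of 3 higher genes in place of 2 of 5 and 7 of 9. In the glucose table the medians of the higher, flat and lower genes at 20 mM were 1.72, 1.28 and 1.20 with a pseudocount of 1. The cause of these moves was not tested, apart from the fewer or more genes that a minimum mean leaves. Of 84 named genes 78 kept their class with a pseudocount of 1, and 84 with 0.01. Settings added after seeing the data were genes with a 0 left out (165 higher, 27 lower) and a mean of at least 1 FPKM over the no-virus libraries alone (168 and 26). No paired analysis was possible because each group has 1 library and no test was run. Depth limits genes near 1 FPKM most, and without replicates no value has a spread.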

Other observations

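Genes outside the fixed lists made up 292 of the 392, of which 103 (35.3%) were higher, 165 flat and 24 lower with A-CREB, against 66 of the 100 genes in a list. The genes of this paragraph were chosen after their values were seen, apart from Runx1. Runx1, a runt-domain transcription factor, was at 9.58 and 82.6 FPKM without virus and at 2.85 and 16.8 FPKM with A-CREB (5.73-fold). Sertad2, a regulator of E2F activity, was at 5.55 and 92.2 FPKM and at 4.69 and 18.8 FPKM (3.95-fold). Cd274, the gene of the immune checkpoint ligand PD-L1, was at 4.57 and 36.0 FPKM and at 2.24 and 9.04 FPKM (3.90-fold). Hexim1, an inhibitor of the elongation factor P-TEFb, went the other way in level, at 24.1 and 54.8 FPKM without virus and at 33.7 and 93.4 FPKM with A-CREB (2.27-fold and 2.76-fold). Ccrn4l, the deadenylase-like gene Nocturnin, had equal DMSO levels of 21.8 FPKM and forskolin levels of 53.3 FPKM without virus and 60.3 FPKM with A-CREB. Mest, an imprinted gene, was at 17.5 and 558 FPKM without virus and at 15.9 and 51.0 FPKM with A-CREB (3.19-fold). Ier2, an immediate early gene that does belong to the early transcription factor list, was at 2.53 and 8.80 FPKM without virus and at 24.4 and 53.5 FPKM with A-CREB (3.38-fold and 2.19-fold).

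In 69 of the 392 genes the forskolin level was higher with A-CREB than without virus, and in 323 it was lower. The 69 comprised 34 higher genes, 32 flat genes and 3 lower genes. Msn, the membrane linker moesin, was at 0.294 and 1.46 FPKM without virus and at 6.78 and 4.78 FPKM with A-CREB, and Plk2, a polo-like kinase, was at 1.302 and 15.8 FPKM and at 12.9 and 29.0 FPKM. With no control virus, infection and A-CREB cannot be told apart in these levels.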
